A study of Mus musculus with 12 samples.

Results

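Tia1 reduction on a P301S tau background was examined as 3 cortex libraries of P301S Tia1+/- mice against 3 of PS19 mice, over all autosomal genes of the deposited count table. The table holds 24062 gene symbols, of which 22807 lay on an autosome, and 14485 of these had enough counts in the 6 libraries to be tested. A further 3390 autosomal symbols had no count in any of the 6. No measured value was used to choose the genes, and the libraries were taken by the titles of their columns.

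PS19 mice carry a human 1N4R tau transgene with the P301S mutation under the mouse prion protein (Prnp) promoter on a B6;C3 background, and here they were wild type at Tia1. By their titles, P301S Tia1+/- mice carry the same transgene and a targeted Tia1 allele (Tia1tm1Andp, backcrossed to C57BL/6J) on a single chromosome copy. The titles thus describe groups that share the tau transgene and differ in Tia1 dosage. The Prnp promoter is active well beyond the cortex, and the Tia1 allele is a germline allele, so the reduction was not limited to neurons. Littermates came from an intercross of the F1 generation, all mice were 9 months old, and mice at the end stage of disease had been left out by the authors. According to the methods, males were used unless stated otherwise. In the deposited labels the genotype entry of each P301S Tia1+/- library gives the genotype without tau and that of each Tia1+/- library gives the one with it. Grouping here is by title, and so is every mention of mice with and without tau. The remaining 6 libraries of the series, 3 of WT and 3 of Tia1+/- mice without the tau transgene, served only as a background.

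TIA1 is an RNA binding protein that regulates the splicing and translation of many transcripts and forms the core of stress granules, the cytoplasmic condensates in which stalled messenger RNAs are held. Tau that has left the axon meets such granules in the cell body and dendrites, and in tau mice a lower dose of Tia1 has been studied as a way to limit the response. The cortex in which this was measured consists mainly of glutamatergic projection neurons and GABAergic interneurons with their glia. The olfactory bulb, in front of it, holds other neurons: mitral and tufted cells, periglomerular cells and granule cells that are renewed through life by neuroblasts, and the incoming axons of olfactory sensory neurons.

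Summed counts were 19146484, 13058003 and 17136305 in PS19 replicates 1 to 3 and 15461503, 16374226 and 16059348 in P301S Tia1+/- replicates 1 to 3, and no library of the series had fewer than 11978962. Rn45s, a ribosomal RNA gene, took 2.71% of PS19 replicate 2 and between 0.117% and 1.03% of every other library. Levels are given as CPM, the count of a gene relative to the library size after TMM normalization, in the order of replicates 1 to 3. A fold change is the log2 difference of P301S Tia1+/- minus PS19, with a standard error (SE, n = 3 per group). The SE was derived from the test named next, as the size of the fold change over the square root of its F statistic. A gene is called when edgeR's quasi-likelihood test gave an adjusted p under 0.05 by the Benjamini-Hochberg method over all genes tested.

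The labels were compared with the genes they concern. Tia1 itself (chr6:86404219-86433405, GRCm38) had 77.9, 70.8 and 71.8 CPM in PS19 and 72.6, 73.5 and 77.8 CPM in P301S Tia1+/- libraries. The groups overlapped, and the fold change was 0.02 (SE 0.0678, adjusted p = 0.864). A count over the whole gene does not separate transcripts of the targeted allele from those of the intact one. The mouse tau gene Mapt had 439, 462 and 457 CPM against 336, 357 and 353 CPM and fell by 0.38 (adjusted p = 0.00360). Prnp, whose promoter drives the transgene, had 2124, 2018 and 2158 CPM against 1500, 1535 and 1404 CPM and fell by 0.51 (adjusted p = 0.00181). All 3 P301S Tia1+/- libraries lay below all 3 PS19 libraries for both genes. Mapt had 256, 369 and 413 CPM in WT and 502, 455 and 344 CPM in Tia1+/- libraries, a range that held both groups. Prnp had 1334, 1879 and 1700 CPM in WT and 1922, 1664 and 996 CPM in Tia1+/- libraries, so that the P301S Tia1+/- libraries lay within the range of the libraries titled without tau, and which libraries carried the transgene was not tested. Xist, the RNA of the inactive X chromosome, had 0.572, 0.480 and 0.783 CPM in PS19 and 274, 261 and 317 CPM in P301S Tia1+/- libraries. The Y-linked Ddx3y had 119, 128 and 131 CPM against 0.0629, 0 and 0.119 CPM, and Uty, Eif2s3y and Kdm5d separated the libraries in the same way, although the methods name males. The Tia1 label and the pattern of sex-linked transcripts thus moved together in all 6 libraries and cannot be told apart, which is why the counts below are of autosomal genes. X-linked and Y-linked genes added 112 and 4 calls.

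Of the autosomal genes, 2902 were called, 20.0% of those tested. In P301S Tia1+/- cortex 1544 (10.7%) were higher and 1358 (9.38%) lower, and in 2883 of the 2902 the 2 groups of libraries did not overlap, as in 38.7% of all genes tested. The rises were larger than the falls. Of the genes that rose, 556 exceeded 2-fold and 189 exceeded 4-fold, and of those that fell, 133 exceeded 2-fold and 7 exceeded 4-fold. The filter on low counts acts here, because 192 of the rises were below its level in a PS19 library and 27 of the falls below it in a P301S Tia1+/- library. Among genes at that level in every library of the lower group, 364 rises and 106 falls exceeded 2-fold. The median size of a called change was 0.745 on the log2 scale for rises and 0.469 for falls, and 1489 calls (51.3%) were smaller than 1.5-fold. When the WT and Tia1+/- libraries were added to the fit, which then estimated the spread over all 4 groups, 29 of the calls (0.196% of the genes tested there) were left, 20 higher (0.135%) and 9 lower (0.0607%), and 2845 genes had an unadjusted p under 0.05. Among members of the gene lists described below, S100a5 and Hsph1 were called in that fit. Calls also depended on single libraries, with 1740 called (11.9%) without P301S Tia1+/- replicate 3 and 1496 (51.6%) of the 2902 called whichever of the 6 libraries was left out. In bulk tissue, fewer cells of a type and less RNA per cell cannot be told apart.

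Genes of the olfactory bulb rose by large amounts. Of the 22 symbols in a list of bulb neuron and neuroblast markers, 19 had enough counts to be tested and were called higher in P301S Tia1+/- cortex, but 4 of them were below the level of the count filter in a PS19 library and could be tested only because they were high in the other group. The remaining 15 had a median fold change of 2.69 on the log2 scale, where the median over all tested autosomal genes was 0.01. The sum of all 22 was 106, 136 and 104 CPM in PS19 and 1041, 913 and 1094 CPM in P301S Tia1+/- libraries, 8.81 times higher. An exact permutation test gave a 2-sided p of 0.1 for this sum, the smallest that 3 against 3 libraries can give. None of the list's 22 symbols was at 0 in all 6 libraries; Uncx and Lhx1, with at most a few counts, and the X-linked Dcx were not among the 19.

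Eomes (chr9:118478212-118486132, GRCm38), a T-box factor of mitral and tufted cells, had 0.156, 0.560 and 0.0602 CPM in PS19 libraries and 39.9, 40 and 45.1 CPM in P301S Tia1+/- libraries. Doc2g, a synaptic protein of the same cells, had 1.51, 4.0 and 2.17 CPM against 189, 160.4 and 182 CPM. For both genes the lowest P301S Tia1+/- library stood far above the highest PS19 library, and the fold changes were 7.46 (SE 0.286) and 6.19 (SE 0.219), with adjusted p values of 8.82e-07 and 6.53e-07. Tbx21, the other T-box factor of mitral and tufted cells, was at or under 3 counts in every PS19 library and at least 57.7-fold higher in P301S Tia1+/- libraries, which had 10.9, 9.78 and 12.6 CPM. Eomes and Tbx21 were below the level of the count filter in every PS19 library. Both could be tested only because they were high in the other group. The photoreceptor cadherin Cdhr1, also strong in mitral cells, had 2.18, 5.36 and 2.41 CPM against 181, 173 and 211 CPM. Th (chr7:142892752-142931128), the rate-limiting enzyme of dopamine synthesis and a marker of periglomerular cells, had 1.3, 3.36 and 2.05 CPM against 70.2, 66.8 and 76.3 CPM, a fold change of 5.06 (SE 0.220, adjusted p = 2.15e-06). Trh, the precursor of thyrotropin-releasing hormone, had 1.04, 1.76 and 1.02 CPM against 48.8, 45.5 and 50.7 CPM and the smallest p of the list (fold change 5.29, SE 0.165, adjusted p = 3.34e-07).

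Transcription factors of the interneurons and of their neuroblasts rose by less. Dlx1, Dlx2, Dlx5 and Dlx6, homeobox factors of GABAergic precursors, had fold changes of 2.53, 2.81, 2.2 and 1.59, and Sp8, Sp9, Tshz1 and Pax6 had 4.77, 2.69, 2.51 and 1.51. The smallest rise of the list was that of Sox11, a factor of immature neurons, with 22.6, 23.2 and 18.3 CPM in PS19 and 27.2, 30.4 and 36.2 CPM in P301S Tia1+/- libraries (fold change 0.55, adjusted p = 0.0181), and it was the single member that lost its call when a library was left out. The calcium binding protein Calb2, a marker of periglomerular cells and of a cortical interneuron class, had 13.8, 13.4 and 8.55 CPM against 264, 235 and 266 CPM, a fold change of 4.42 (SE 0.160).

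Transcripts of the sensory axons that end in the bulb rose as well, but not as a whole list. Of 11 tested members 6 rose and none fell. Of the 7 members at the level of the count filter in every PS19 library 2 rose, with a median fold change of 0.50 over the 7. Omp (chr7:98143359-98145502, GRCm38), the olfactory marker protein of mature sensory neurons, had 0.260, 0.560 and 0.542 CPM in PS19 and 72.6, 135 and 133 CPM in P301S Tia1+/- libraries. S100a5, a calcium binding protein of the same neurons, had 0.312, 0.560 and 0.0602 CPM against 64.8, 108 and 104 CPM. Their fold changes of 8.0 and 8.27 (SE 0.368 and 0.361) were the largest of the list, and in both genes P301S Tia1+/- replicate 1 was the lowest of its group. Stoml3, a stomatin-like protein of sensory cilia, was at or under 3 counts in each PS19 library and at least 62-fold higher in the other group. Omp, S100a5 and Stoml3 were below the level of the count filter in every PS19 library. They could be tested only because they were high in the other group. Gng13, a G protein subunit, and Fstl5, a secreted follistatin-like protein, rose by less (0.64 and 1.5). Ric8b and Rtp1, which act with olfactory receptors, had fold changes of -0.01 and -0.24 with adjusted p values of 0.964 and 0.823.

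Outside the tissue lists, the 12 largest rises among genes of at least 5 CPM were of the same size, between 4.77 for Clca1, a secreted protease, and 8.9 for Cyp2a5, a cytochrome of the nasal mucosa and the liver. Cyp2a5 had 0.943, 26 and 162 CPM in P301S Tia1+/- libraries and at most 0.241 CPM in PS19 libraries, so that its level was set mainly by replicate 3 and its call was lost with a library left out. Scgn, the calcium binding protein secretagogin of bulb interneurons, had 0.0520, 0.560 and 0.241 CPM against 24.1, 18 and 22.4 CPM, and Vipr2, a receptor of vasoactive intestinal peptide, had 0.728, 1.04 and 0.723 CPM against 34.2, 22.6 and 32.2 CPM. Adamts19, a metalloprotease, Trdn, a calcium release protein, and Dnah11, a ciliary motor, rose by 6.43, 6.19 and 6.02. Cyp2a5, Scgn, Adamts19 and Trdn had at most 7 counts in each PS19 library, below the level of the count filter. They could be tested only because they were high in the other group, so a large rise was a condition of their being listed. Dnah11 was below that level in PS19 replicate 1. Among genes of at least 50 CPM, Pbx3, a homeobox factor of dopaminergic periglomerular cells, had 8.94, 10.6 and 5.06 CPM against 105, 83.6 and 105 CPM (fold change 3.59, SE 0.214, adjusted p = 1.1e-05). Fabp7, a fatty acid binding protein of radial and olfactory glia, had 25.4, 20.7 and 13.1 CPM against 134, 162 and 143 CPM (fold change 2.89, adjusted p = 2.48e-05), and Gng4, a G protein subunit, rose by 2.76. In each of these genes WT replicate 1 was above WT replicates 2 and 3, with 40.7, 5.5 and 0.912 CPM for Scgn and 462, 79.6 and 28.4 CPM for Fabp7.

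Olfactory transcripts were not particular to P301S Tia1+/- libraries. The summed bulb list was 1495, 319 and 135 CPM in WT and 119.6, 107 and 452 CPM in Tia1+/- libraries, so that WT replicate 1 exceeded every P301S Tia1+/- library while PS19 libraries lay near Tia1+/- replicates 1 and 2 and WT replicate 3. In the plot of 8 such genes by library, the P301S Tia1+/- replicates lie close together and the WT replicates lie far apart.

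**Figure D1:**
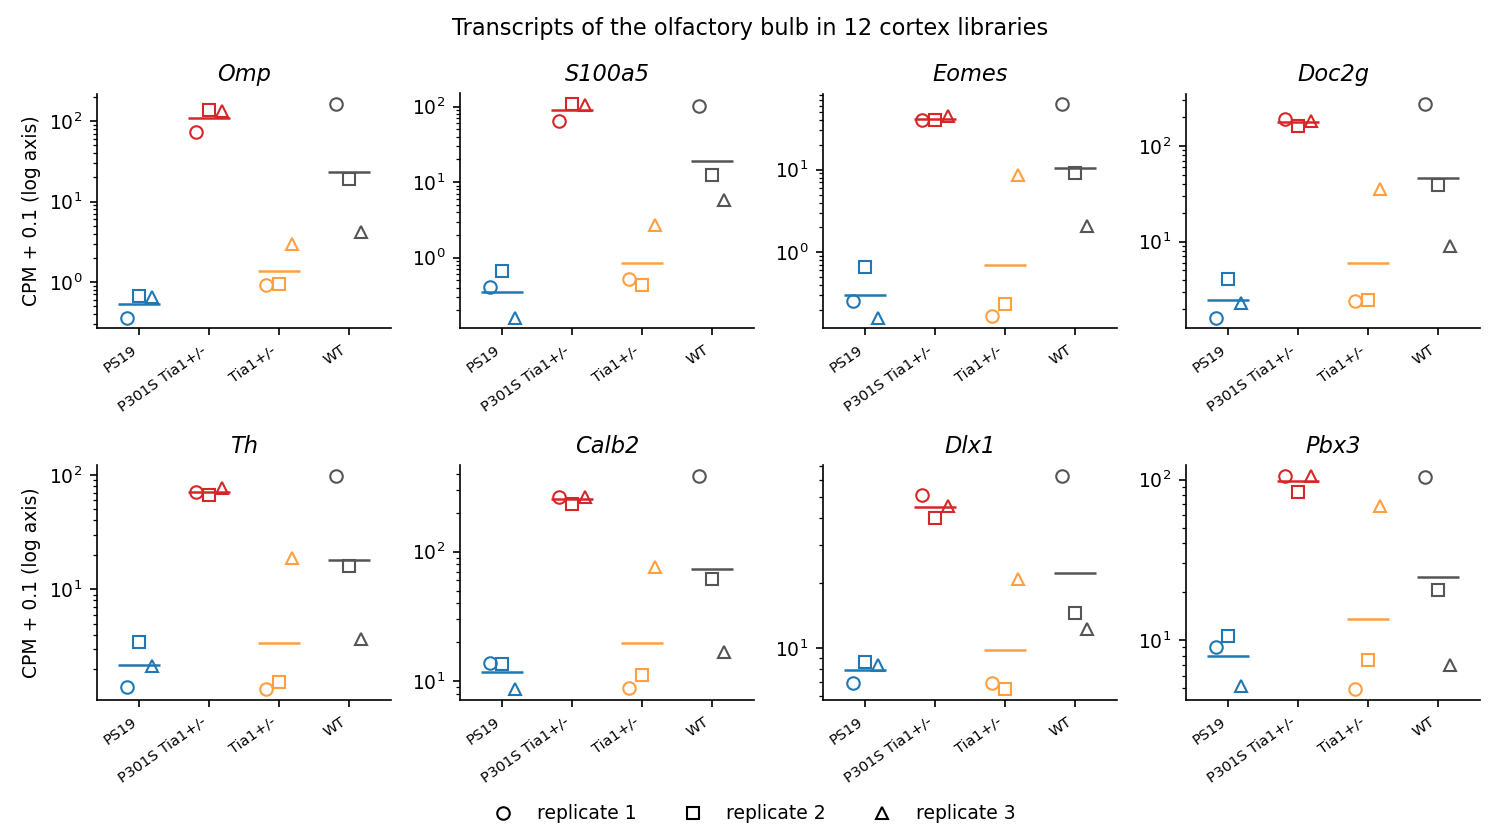
Levels of 8 olfactory bulb genes in each of the 12 libraries, in CPM plus 0.1 on a log axis, by group; circles, squares and triangles are replicates 1 to 3 and lines are means of the log values. All 3 P301S Tia1+/- libraries lie above all 3 PS19 libraries in each panel, and WT replicate 1 lies above them for Omp (162 CPM) and Doc2g (273 CPM).

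Markers of cortical projection neurons fell more often than they rose. Of 24 cortical projection neuron markers 11 fell and 2 rose (54.2% called beside 20.0% of all genes), with a median fold change of -0.586. Their sum was 2138, 2319 and 2363 CPM in PS19 and 1822, 1951 and 1740 CPM in P301S Tia1+/- libraries without overlap. Fezf2, the factor that specifies deep-layer corticospinal neurons, had 30.3, 36 and 35.5 CPM against 14.3, 14 and 9.76 CPM and fell by 1.42 (SE 0.149, adjusted p = 0.000318). Rspo1, a secreted Wnt agonist, fell by 1.37 and Neurod6, a helix-loop-helix factor of pyramidal neurons, by 0.87. In all 3 genes the P301S Tia1+/- libraries lay below the PS19 libraries. Cux1, an upper-layer factor, rose instead, from 94.5, 71.4 and 83.2 CPM to 112, 117 and 128 CPM (fold change 0.52, adjusted p = 0.00732). Neurod2, a further factor of this class that is named after its values were seen, lost its call when a library was left out. With the olfactory covariate described below, 5 members of the list were higher and 1 lower, with a median of 0.598.

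Satb1, a chromatin organizer of cortical neurons, had the largest fall among genes of at least 50 CPM outside the tissue lists after Lars2, with 186, 128 and 175 CPM in PS19 against 53.3, 55 and 47.2 CPM in P301S Tia1+/- libraries (fold change -1.66, SE 0.135, adjusted p = 7.63e-05). Tenm2, a teneurin of synaptic adhesion, Miat, a long noncoding RNA, Ldb2, a LIM-domain cofactor, and the thyroid hormone receptor Thrb fell by 1.31, 1.24, 1.21 and 1.11, each with its 2 groups apart. Lars2, a mitochondrial transfer RNA ligase, had 409, 8203 and 1001 CPM in PS19 and 202, 246 and 358 CPM in P301S Tia1+/- libraries, so that its fall of 3.58 was set by PS19 replicate 2, the library with the most Rn45s, and its adjusted p rose from 0.0278 to 0.1 with a library left out. Whether the 2 transcripts are linked was not tested.

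GABAergic markers were split. Gad1, which makes most of the GABA of the cortex, had 282, 329 and 342 CPM in PS19 and 989.7, 857 and 1044 CPM in P301S Tia1+/- libraries (fold change 1.6, SE 0.103, adjusted p = 1.86e-05), and Slc6a11, a GABA transporter of astrocytes, had 85.5, 91 and 72.5 CPM against 250, 259.8 and 280.2 CPM (fold change 1.67, adjusted p = 7.34e-06). Lhx6, a factor of interneurons from the medial ganglionic eminence, fell by 1.37, from 15.2, 14.7 and 13.9 CPM to 6.04, 5.7 and 5.24 CPM, and their neuropeptide Sst fell by 0.81, from 119, 100 and 113 CPM to 72.8, 64 and 52.5 CPM (adjusted p = 0.000135 and 0.00182). Of 17 tested interneuron markers 7 rose and 5 fell (70.6% called beside 20.0% of all genes), and 5 were not called. In the list of GABA synthesis and receptors (60.0% called) 8 of 20 rose, among them Gad1 and Slc6a11, and 4 fell, all of them receptor subunits. Gabbr2, of the metabotropic receptor, had 174, 189 and 222 CPM against 116, 137 and 107 CPM and fell by 0.70, and Gabrb1, of the ionotropic receptor, fell by 0.54. All 12 called interneuron markers and all 12 called genes of GABA synthesis and receptors moved in the direction of WT replicate 1. Gad1 had 1222, 440 and 397 CPM in WT libraries, and Lhx6 had 1.68, 11.3 and 16.4 CPM there.

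Markers of other brain regions and tissues were called in part, beside 20.0% of all genes. The share was 33.3% for striatal, 46.2% for hippocampal and 20.0% for thalamic markers. It was 37.5% for choroid plexus and 15.4% for leptomeningeal markers. Among 15 striatal neuron markers, Penk, the enkephalin precursor that granule cells of the bulb also express, rose from 15.8, 62.7 and 42 CPM to 119.7, 96.7 and 118 CPM (fold change 1.5, a call lost without a library), while the dynorphin precursor Pdyn was among the 4 that fell, by 1.26. The striatal sum of 328, 596 and 529.6 CPM in PS19 and 372, 374 and 444 CPM in P301S Tia1+/- libraries overlapped (exact permutation p = 0.4). Of 13 hippocampal markers 2 rose and 4 fell, and of 10 thalamic markers 2 rose. Cacng5 and Adarb1, listed for the thalamus, rose by 3.47 and 0.98. A choroid plexus gene, the water channel Aqp1, rose from 0.416, 0.640 and 0.542 CPM to 13.8, 18.7 and 30.1 CPM, whereas Ttr, the transthyretin that defines this tissue, had 40.2, 5.12 and 6.87 CPM in PS19 and 0.189, 0.480 and 1.43 CPM in P301S Tia1+/- libraries and fell by 4.63. The leptomeningeal list was spread widely within P301S Tia1+/- libraries, at 87.3, 198 and 420.4 CPM, against 139.6, 119 and 68 CPM in PS19. Its 2 calls were Islr, which rose by 2.37, and Col1a1, in which the groups overlapped. No blood, pituitary or ependymal marker was called.

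Because WT replicate 1 differed from WT replicates 2 and 3 in the same olfactory genes without any change of labelled genotype, its difference from them was set beside the comparison of P301S Tia1+/- with PS19 mice. The WT libraries took no part in the fit of the 6 libraries. Of the genes that rose, 1448 (93.8%) were also higher in WT replicate 1, and of those that fell 1283 (94.5%) were also lower, where 51.1% of all tested genes were higher and 48.9% lower. Among calls over 2-fold, 511 of 556 rises (91.9%) and 105 of 133 falls (78.9%) differed over 1.5-fold in the same direction in WT replicate 1, where 26.2% of all tested genes differed over 1.5-fold in either direction. Across the 2902 called genes the 2 differences had a Pearson correlation of 0.824 and a Spearman correlation of 0.903, as a description, since genes of a library share its tissue and depth. The part of olfactory tissue in the called changes was not tested.

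**Figure D2:**
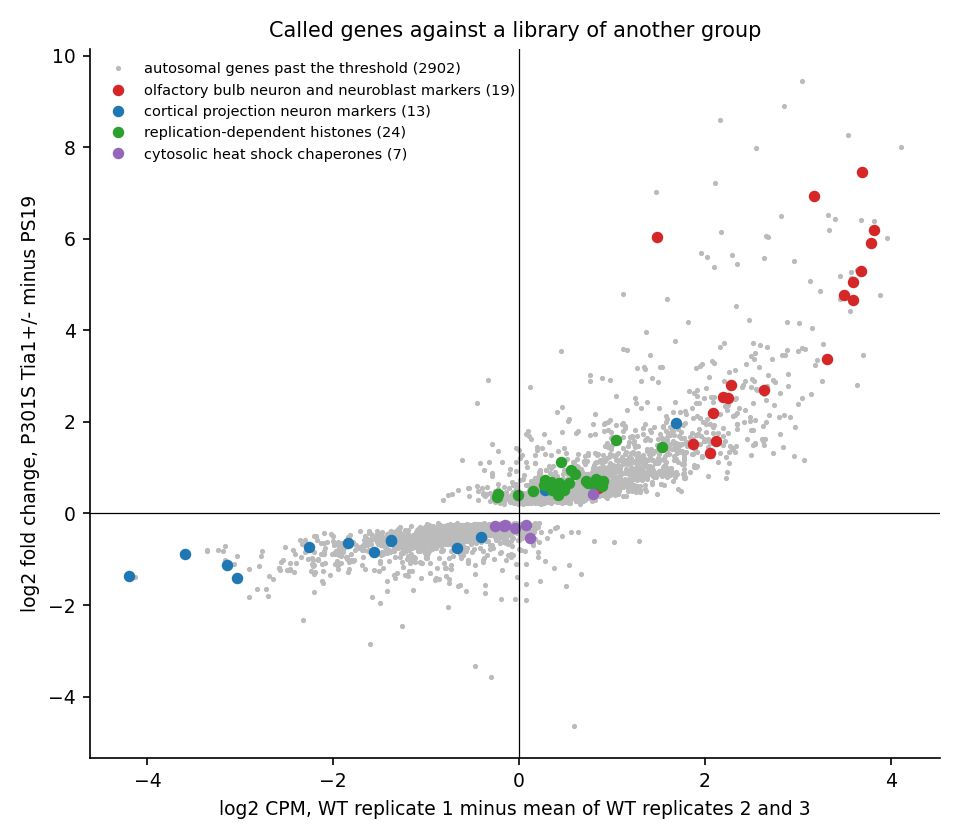
Each point is a called autosomal gene, with the log2 CPM of WT replicate 1 minus the mean of WT replicates 2 and 3 on the x axis and the log2 fold change of P301S Tia1+/- minus PS19 on the y axis. The 19 olfactory bulb markers lie at the upper right, the 13 called projection neuron markers have the same sign on both axes, and the 6 heat shock chaperones that fell lie near 0 on the x axis.

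Leaving out genes that differed over 1.5-fold between WT replicate 1 and the other WT libraries left 10691 genes, of which 969 were called (9.06%), 483 higher and 486 lower. A limit of 1.2-fold, added after the data were seen, left 6434 genes and 304 calls (4.72%), 141 higher and 163 lower, of which 69 exceeded 1.5-fold and 19 exceeded 2-fold. With the mean level of both olfactory lists as a covariate in the fit of 12 libraries, 499 genes were called (3.36%), of which 214 were among the 2902, 46 in the same direction and 168 in the opposite one. Of the 121 named genes past the threshold in the 6 libraries, 54 had the opposite sign with this covariate, whose value was 1.59 to 1.96 in PS19 and 4.31 to 4.73 in P301S Tia1+/- libraries on the log2 scale, without overlap. Of these, 7 passed the threshold in the opposite direction, Neurod6, Neurod2, Satb1, Rims1, Gabbr2 and Mapk10 as higher and Fstl5 as lower.

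More synaptic genes fell than rose. Of 43 glutamate receptors and postsynaptic scaffold genes 13 fell and 7 rose, 46.5% called beside 20.0% of all genes. Of 36 genes of the synaptic vesicle and its release 9 fell and 2 rose (30.6% called). The median fold changes of the lists were -0.0862 and -0.229. Without PS19 replicate 1 the vesicle list had 19 calls, and without any other library 7 to 9. General neuron markers moved with these lists, with 6 of 12 lower and 1 higher (58.3% called) and a median of -0.298. Their sums were 8470, 9236 and 10110 CPM in PS19 against 8183, 8011 and 7216 CPM in P301S Tia1+/- libraries. That was 0.842 times the PS19 level as against 0.847 times for the vesicle list. Snap25 and Syt1 are in both lists, 3 to 7 of the neuron markers were called with a library left out, and their part in the synaptic result was not tested. Nlgn1, the neuroligin of excitatory synapses, had 230.4, 243 and 228 CPM in PS19 and 164, 162 and 150.3 CPM in P301S Tia1+/- libraries and fell by 0.56 (SE 0.0672, adjusted p = 0.000662). Shank3, a scaffold of the postsynaptic density, had 87.3, 98.5 and 89.7 CPM against 57, 62 and 63.4 CPM and fell by 0.60 (SE 0.0749, adjusted p = 0.000855). Grm4, a presynaptic metabotropic receptor, rose instead, from 18.1, 14.2 and 14 CPM to 44.8, 39.6 and 43.5 CPM (fold change 1.46). The groups did not overlap in any of these 3 genes.

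On the presynaptic side, Snap25, a SNARE protein of vesicle fusion whose splicing the study followed, had 2782, 3103 and 3919 CPM in PS19 and 2637, 2423 and 2025 CPM in P301S Tia1+/- libraries. The groups did not overlap, and Snap25 fell by 0.47 (SE 0.141, adjusted p = 0.0460), a call lost without a library. Rims1, an organizer of the active zone, fell by 0.59 from 262, 253 and 321 CPM to 178, 203 and 175 CPM, and Unc13b, a priming factor, fell by 0.50. Cplx1, which clamps fusion, rose from 280.1, 268 and 333 CPM to 396, 375 and 382 CPM (fold change 0.39, adjusted p = 0.0150), a call also lost without a library. Gria2, the AMPA receptor subunit whose splicing was also followed, had 1159, 1262 and 1194 CPM against 1092, 1091 and 991 CPM and a fold change of -0.19 (adjusted p = 0.116). The vesicle list summed to 15840, 17060 and 18340 CPM in PS19 and 14710, 15160 and 13520 CPM in P301S Tia1+/- libraries, and to 11880, 16940 and 17690 CPM in WT libraries, where replicate 1 was the lowest. With the olfactory covariate the median of this list was 0.352, with 5 members higher and none lower.

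Ion channel genes changed in both directions. Of 40 potassium and sodium channel genes 9 rose and 11 fell (50% called), and of 15 voltage-gated calcium channel genes 5 rose and 5 fell (66.7% called), beside 20.0% of all genes. Kcnab1, a potassium channel beta subunit, had 136, 129 and 122 CPM in PS19 and 63, 68.6 and 51.5 CPM in P301S Tia1+/- libraries and fell by 1.08 (SE 0.102, adjusted p = 0.000175). The delayed rectifier Kcnb2 rose from 37.7, 40.1 and 41 CPM to 85.2, 75 and 102 CPM (fold change 1.14, adjusted p = 0.000208), and the inward rectifier Kcnj4 rose by 0.76. Cacna1c, the pore of an L-type calcium channel, rose from 61.4, 75.4 and 66.4 CPM to 125, 120.4 and 153 CPM (fold change 0.97, adjusted p = 0.000485), while the auxiliary subunit Cacna2d3 fell by 1.07. All 20 called potassium and sodium channels and all 10 called calcium channels moved in the direction of WT replicate 1.

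**Figure D3:**
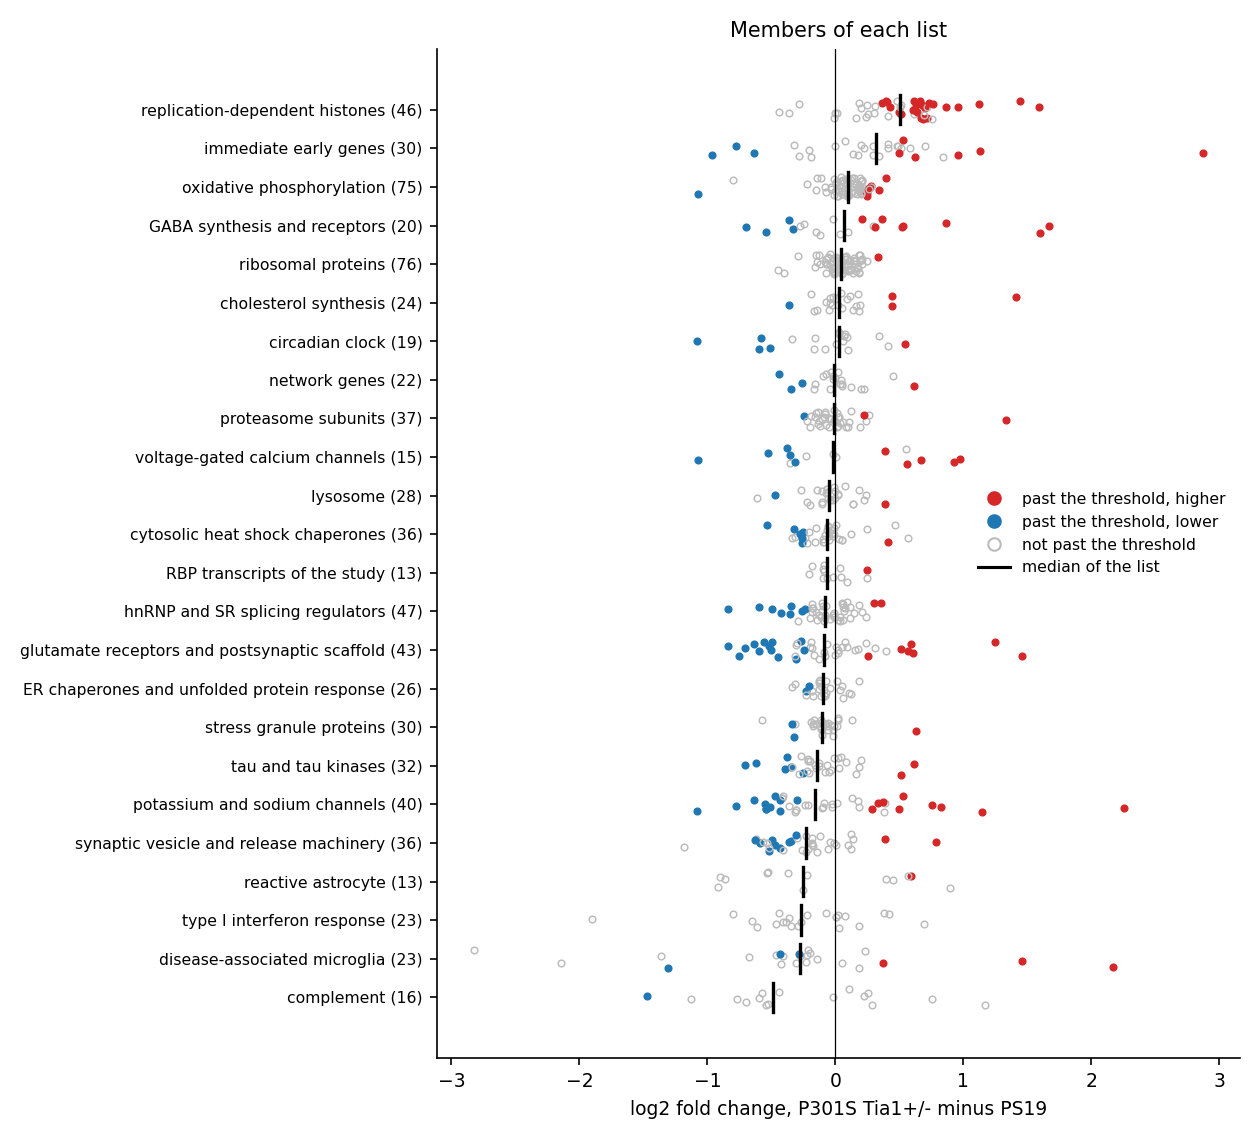
Log2 fold change of P301S Tia1+/- minus PS19 on the x axis for every tested member of 24 gene lists, with the number tested in brackets; filled points passed the threshold and bars are list medians. Histones have the highest median (0.508) with 24 members past the threshold, all higher, and the complement list has the lowest (-0.484) with 1 member past it.

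Of 32 genes for tau and the kinases and phosphatases that act on it 2 rose and 6 fell, 25% called beside 20.0% of all genes, with a median fold change of -0.141. Without PS19 replicate 1 there were 11 calls and without any other library 5. With the olfactory covariate 2 members were higher and none lower, with a median of 0.158. Fyn, a tyrosine kinase that phosphorylates tau at its amino-terminal part, had 94.9, 94.6 and 94.6 CPM in PS19 and 149.9, 144 and 141 CPM in P301S Tia1+/- libraries, a fold change of 0.61 (SE 0.0611, adjusted p = 0.000226). PS19 libraries differed little among themselves in this gene. Camk2b, a calcium-dependent kinase, another gene whose splicing was followed, had 507, 564 and 539 CPM against 794, 736 and 769.6 CPM and rose by 0.51 (SE 0.0725, adjusted p = 0.00156). Mapk10, the neuronal JNK, fell by 0.62, from 469.8, 499.6 and 508 CPM to 323, 345 and 295 CPM. The groups did not overlap in any of the 3. In WT replicate 1 Fyn had 173 CPM and Mapk10 220.5 CPM, beyond the PS19 libraries on the same side as P301S Tia1+/- libraries. Stub1, the ubiquitin ligase that clears tau, had 38.2, 34.4 and 35.4 CPM against 40.8, 43.1 and 40.7 CPM (fold change 0.20, adjusted p = 0.1).

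Stress granule genes were called less often than the 20.0% of all genes. Of 30 tested stress granule genes, Tia1 included, 1 rose and 2 fell, with a median fold change of -0.102. Ybx1, a cold shock protein of messenger ribonucleoproteins, had 85.2, 74 and 90.7 CPM in PS19 and 134, 126 and 128 CPM in P301S Tia1+/- libraries (fold change 0.63, SE 0.0822, adjusted p = 0.00106). G3bp2, a granule nucleator, fell by 0.32 from 456, 494 and 451 CPM to 391, 379 and 351 CPM, and Stau2, a dendritic RNA transport factor, fell by 0.34, both calls being lost with a library left out. The summed list was 4735, 5021 and 4924 CPM in PS19 against 4763, 4738 and 4611 CPM, with overlap (exact permutation p = 0.3).

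The study examined a larger set of RNA binding protein transcripts, and the 13 that its text names were taken here. Of these, Snrpb, a core protein of spliceosomal small nuclear ribonucleoproteins, was the 1 called (7.69%). It had 63.1, 65.6 and 66 CPM against 79.5, 74.8 and 76.6 CPM and a fold change of 0.25 (adjusted p = 0.0262), a call that was lost whichever of the 6 libraries was left out. Snrnp70, of the U1 particle, had 103, 94 and 95.5 CPM against 79.6, 94.3 and 84.1 CPM and was not called (fold change -0.18, adjusted p = 0.135). The study chose this list on libraries of this series. Of 47 hnRNP, SR and tissue-specific splicing regulators 8 fell and 2 rose, 21.3% called beside 20.0% of all genes, and 4 to 8 were called with a library left out, the fewest without P301S Tia1+/- replicate 1 or 2. Khdrbs3, a STAR-family regulator of neurexin splicing, fell by 0.84 from 239, 211 and 234 CPM to 136, 128 and 117 CPM (adjusted p = 0.000192), and Mbnl1, a muscleblind factor, fell by 0.50 from 167, 161 and 180.1 CPM to 118, 124 and 119 CPM (adjusted p = 0.00128). Ptbp3 and Ptbp1, polypyrimidine tract binding proteins, rose by 0.35 and 0.31. The Ptbp1 call was lost without a library, by DESeq2 and with the replicate block. All 10 called regulators moved in the direction of WT replicate 1.

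Of the network genes that the study singled out, 3 of 22 fell and 1, Fyn, rose, 18.2% called beside 20.0% of all genes. Without PS19 replicate 2 or P301S Tia1+/- replicate 2 or 3, 2 were called. App, the amyloid precursor protein, fell by 0.44, from 1248, 1324 and 1377 CPM to 961, 1049 and 899 CPM, and Egfr, the epidermal growth factor receptor, fell by 0.34, from 25.4, 24.8 and 24.3 CPM to 16.9, 21.6 and 20.2 CPM (adjusted p = 0.00571 and 0.0493). The Egfr call was lost when a library was left out. Myc had 1.66, 1.92 and 2.17 CPM against 1.89, 1.62 and 1.96 CPM (adjusted p = 0.873).

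Many replication-dependent histones rose. These genes encode the core and linker histones in clusters, and their messenger RNAs end in a conserved stem-loop and not in a poly(A) tail, so total RNA libraries such as these can hold them. Of 46 tested, 24 (52.2%) rose, beside 10.7% of all genes, and none fell. Their median fold change was 0.508, the highest of the 24 pathway lists. The summed level was 723, 581 and 614 CPM in PS19 and 964, 897 and 858 CPM in P301S Tia1+/- libraries, 1.42 times higher without overlap (exact permutation p = 0.1, the smallest possible). It was 880.5, 691 and 688 CPM in WT and 685, 771 and 715 CPM in Tia1+/- libraries, so WT replicate 1 lay within the P301S Tia1+/- range. Of the 24, 21 moved in the direction of WT replicate 1 and 15 lost their call when a library was left out, with 11 calls when P301S Tia1+/- replicate 1 was left out, 12 when PS19 replicate 2 was and 14 when P301S Tia1+/- replicate 2 was. With the olfactory covariate 1 histone was called, higher, with a median of 0.252. Without the genes over 1.5-fold in WT replicate 1, 14 of 30 histones were called, and with the limit of 1.2-fold 2 of 11. Members share long stretches of coding sequence, so reads of 1 gene may be counted for another, and the values of single members are uncertain.

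Hist2h2be had 5.92, 5.04 and 4.94 CPM in PS19 and 11.9, 16.9 and 14.6 CPM in P301S Tia1+/- libraries (fold change 1.44, SE 0.160, adjusted p = 0.000436). It had 16, 6.09 and 4.41 CPM in WT libraries, and with the olfactory covariate its fold change was 0.00363 (adjusted p = 0.997). The stem-loop letters searched for below were not found in it. The list was drawn up by gene symbol, and whether each member depends on replication was not tested. Hist1h4h had 30, 27.9 and 29.7 CPM against 49.9, 42.3 and 46.3 CPM (fold change 0.66, SE 0.0884, adjusted p = 0.00122). Hist1h4c and the linker histone Hist1h1c, named after their values were seen, had 14.4, 9.69 and 18.9 CPM against 36.8, 32.3 and 25.2 CPM and 46.3, 29.4 and 29.9 CPM against 61.1, 53.4 and 60.1 CPM, fold changes of 1.12 and 0.72. The groups did not overlap in these 4 genes. Hist1h4i and Hist1h1e, a further core histone and, chosen in the same way, a further linker histone, had 14.4, 14 and 8.97 CPM against 7.36, 7.32 and 12.8 CPM and 56.9, 36.3 and 35.2 CPM against 44.9, 42.4 and 41.1 CPM, with overlapping groups and fold changes of -0.44 and -0.01.

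The annotated transcripts of called and not called members were searched for a fixed spelling of the stem-loop, the feature that sets these messenger RNAs apart. The letters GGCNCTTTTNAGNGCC, sought on the transcribed strand of GENCODE M21 transcripts on GRCm38, were found in 26 of the 46 tested histones, in 12 of the 24 called and 14 of the 22 not called, and in 2 of 14348 other tested autosomal genes (0.0139%). Sequences of 3 called and 2 not called members are shown 5′ to 3′ as DNA letters, with the 4 bases of the loop in capitals and the 6 bases of each stem arm in lower case. All lie in the 3′ UTR.
Hist1h4h, called, chr13:23531458-23531473, plus strand: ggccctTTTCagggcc
Hist1h4c, called, chr13:23698089-23698104, minus strand: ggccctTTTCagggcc
Hist1h1c, called, chr13:23739512-23739527, plus strand: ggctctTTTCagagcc
Hist1h4i, not called, chr13:22040966-22040981, minus strand: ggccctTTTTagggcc
Hist1h1e, not called, chr13:23621782-23621797, minus strand: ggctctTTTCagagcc
Called and not called members thus both held the letters. A member without them may carry another spelling or have an annotated transcript that stops before the stem-loop, which was not tested. In the members shown, the annotated transcript ran on past the letters by 46 bases (Hist1h4h) to 1153 bases (Hist1h1e).

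**Figure D4:**
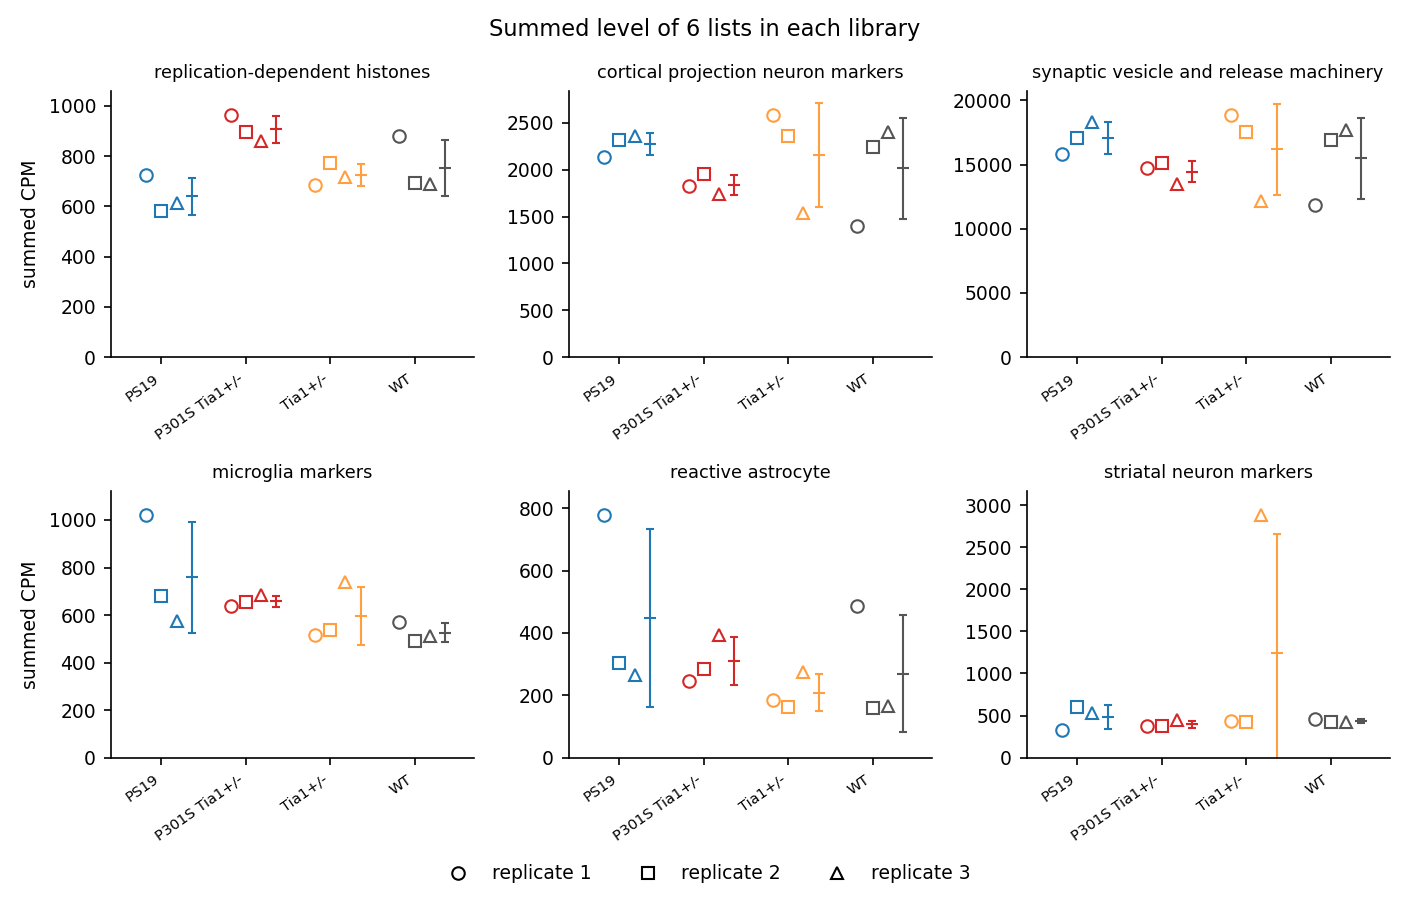
Summed CPM of 6 gene lists in each of the 12 libraries; circles, squares and triangles are replicates 1 to 3, and the bar beside each group is the mean with the SD (n = 3), cut at 0. The histone sum is higher in all P301S Tia1+/- than in all PS19 libraries, PS19 replicate 1 stands above its group for microglia (1020 CPM) and reactive astrocyte genes (778 CPM), and Tia1+/- replicate 3 stands out for striatal markers (2879 CPM).

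Some chaperones of the cytosol fell by small amounts. Of 36 tested heat shock genes 6 fell and 1 rose, 19.4% called beside 20.0% of all genes, with a median fold change of -0.0631. With a library left out 2 to 7 were called, the fewest without P301S Tia1+/- replicate 2 or 3. Hsph1 (chr5:149614287-149636376, GRCm38), the HSP110 nucleotide exchange factor of the disaggregating HSP70 machinery, had 323, 330 and 325 CPM in PS19 and 219, 239.9 and 217 CPM in P301S Tia1+/- libraries. The groups were far apart relative to their spread, and Hsph1 fell by 0.53 (SE 0.0661, adjusted p = 0.000785). It was also called in the fit of all 12 libraries (adjusted p = 0.0440), with 435, 384 and 419 CPM in WT and 373, 312 and 322 CPM in Tia1+/- libraries. Hspa4l, a relative of Hsph1, fell by 0.26 from 252, 247 and 263 CPM to 220.2, 212 and 206 CPM, and Hsp90ab1, the constitutive HSP90, fell by 0.26 from 1237, 1326 and 1205 CPM to 1013, 1099 and 1028 CPM. Both lost their call with a library left out. The same 6 falls were called among the 23 chaperones that stayed within 1.2-fold in WT replicate 1, and of the 7 calls 5 had the direction of WT replicate 1. In the endoplasmic reticulum list 2 of 26 fell, Pdia3 by 0.23 and Hyou1 by 0.21, and none rose. Both calls were lost with a library left out.

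Immediate early genes were mixed, with 6 of 30 higher and 3 lower, 30% called beside 20.0% of all genes. With a library left out 3 to 10 were called, the most when PS19 replicate 1 was left out and the fewest when P301S Tia1+/- replicate 1 or 3 was. Bdnf (chr2:109674700-109727007, GRCm38), the activity-dependent neurotrophin, had 61.7, 55.1 and 80.2 CPM in PS19 and 35.6, 38.1 and 27.6 CPM in P301S Tia1+/- libraries. It fell by 0.96 (SE 0.157, adjusted p = 0.00316) without overlap, and WT libraries had 126, 116 and 103 CPM and Tia1+/- libraries 67.2, 51.9 and 25.6 CPM. Its receptor gene Ntrk2, named after its values were seen, had 912, 803 and 859 CPM against 577, 661 and 603 CPM and fell by 0.48 (SE 0.0795, adjusted p = 0.00324). Homer1 fell by 0.64 from 346, 339 and 537 CPM to 270.5, 276 and 240.1 CPM, with PS19 replicate 3 above its group, and lost its call without a library. The AP-1 gene Fosl2 rose from 45.1, 40 and 45.6 CPM to 92.8, 93.2 and 102 CPM (fold change 1.13, adjusted p = 2.48e-05) and Atf3, a stress-induced factor, from 2.08, 3.44 and 1.32 CPM to 19.2, 13.4 and 16.3 CPM (fold change 2.88, adjusted p = 0.000213). Both had WT replicate 1 well above WT replicates 2 and 3, at 201, 92.6 and 80 CPM for Fosl2 and 27.8, 7.28 and 1.75 CPM for Atf3. The summed list of 1257, 1878 and 2194 CPM in PS19 and 1689, 1855 and 1818 CPM in P301S Tia1+/- libraries overlapped.

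In the circadian list 4 of 19 genes fell and 1 rose, 26.3% called beside 20.0% of all genes. With the olfactory covariate 4 were higher and none lower, with a median of 0.40 against 0.0247 without it. Npas2 and Arntl, partners in the positive limb of the clock, fell by 1.08 and 0.58, Npas2 from 32.2, 38.4 and 31.9 CPM to 15.2, 17.2 and 16 CPM and Arntl from 53.6, 44.8 and 50 CPM to 32.3, 35.5 and 31.6 CPM (adjusted p = 0.000208 and 0.00252). Dbp, an output gene of the clock, rose from 34, 28 and 34.6 CPM to 49.4, 45.8 and 46.6 CPM (fold change 0.55, adjusted p = 0.00437). The groups did not overlap in any of the 3. The hours at which the mice were killed are not given in the sources used here.

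Microglia, reactive astrocyte, complement and interferon lists were called no more often than the 20.0% of all genes, and PS19 replicate 1 decided much of their spread. Microglia markers summed to 1020, 682 and 573 CPM in PS19 and 636, 654 and 684 CPM in P301S Tia1+/- libraries, and reactive astrocyte genes to 778, 302 and 264 CPM against 247, 285 and 395 CPM. Of 17 microglia markers 3 rose (17.6% called), of 13 reactive astrocyte genes 1 rose (7.69%) and of 16 complement genes 1 fell (6.25%). Of 23 genes of the type I interferon response none was called by edgeR, with 2 at an unadjusted p under 0.05. Leaving out 1 library gave 1 to 5 called microglia markers, 0 to 1 reactive astrocyte genes, 0 to 2 complement genes and 0 to 4 interferon genes. DESeq2, which called 20.4% of all genes in the 6 libraries, called 1 interferon gene higher and 1 lower. C1qb, a subunit of the complement initiator C1q, had 79.3, 39.6 and 28.3 CPM against 28.2, 33.6 and 29.4 CPM, so that only PS19 replicate 1 stood above the P301S Tia1+/- range by over 1.5 times (fold change -0.70, adjusted p = 0.152). Ifit2, an interferon-induced protein, had 30.6, 20.6 and 23.1 CPM against 34.8, 31.5 and 33.8 CPM (fold change 0.42, adjusted p = 0.0604).

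Genes of disease-associated microglia were called in both directions, 3 of 23 higher and 3 lower, 26.1% called beside 20.0% of all genes. Of the 6 calls 3 were lost with a library left out, among them that of Spp1, and 3 to 7 were called then, the fewest without P301S Tia1+/- replicate 1 or 3. Gpnmb, a glycoprotein of phagocytic cells, rose from 3.12, 0.961 and 1.21 CPM to 8.99, 8.7 and 7.14 CPM (fold change 2.17, SE 0.360, adjusted p = 0.00337) and Spp1, osteopontin, from 27.5, 9.45 and 8.85 CPM to 44.8, 34.7 and 49 CPM (fold change 1.46, adjusted p = 0.0240). Lpl, lipoprotein lipase, fell by 1.31 from 26.9, 23.3 and 14.1 CPM to 8.18, 9.96 and 7.79 CPM. Sall1, the microglial identity factor, belongs to the microglia marker list and not to this one. It had 10.1, 11.2 and 8.67 CPM against 45, 36.8 and 54.8 CPM and rose by 2.19, with 62.1, 14.3 and 9.81 CPM in WT libraries. Of the 17 tested microglia markers 12 had a fold change below 0, and the median of that list was -0.228.

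Astrocyte markers included 4 of 16 that rose and 1 that fell, 31.2% called beside 20.0% of all genes. Their median fold change was -0.05, with 9 of the 16 below 0. The summed list was lower without overlap, at 8869, 7906 and 7645 CPM in PS19 and 6952, 7255 and 7208 CPM in P301S Tia1+/- libraries. Slc1a2, the main glutamate transporter, had 3489, 3456 and 3006 CPM in PS19 and 2069, 2154 and 2005 CPM in P301S Tia1+/- libraries and fell by 0.68 (SE 0.0852, adjusted p = 0.000858). Slc4a4, a bicarbonate cotransporter, rose from 138, 148 and 125 CPM to 262, 247 and 303 CPM (fold change 0.98, adjusted p = 0.000208). Oligodendrocyte markers gave 1 call of 18 (5.56%), Olig2, which fell by 0.39 (adjusted p = 0.0495) and lost its call with a library left out. Without PS19 replicate 1, 9 of the 18 were called. Of 18 endothelial and mural markers 2 rose (11.1% called), the transporter Slco1a4 and the tight junction protein Cldn5, by 0.58 and 0.81.

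Housekeeping lists were called less often than the 20.0% of all genes. Of 76 ribosomal protein genes 1 rose (1.32% called), and of 37 proteasome genes 2 rose and 1 fell (8.11%). Of 28 lysosomal genes 1 rose and 1 fell (7.14%), and of 24 genes of cholesterol synthesis 3 rose and 1 fell (16.7%). Oxidative phosphorylation genes had 7 of 75 higher and 1 lower, 10.7% called beside 20.0% of all genes, with 62 of the 75 above 0 and a median fold change of 0.098. Of the 8 calls 7 were lost with a library left out, that of Atp5g2 among them, and 1 was left without P301S Tia1+/- replicate 1. Sdhc, of complex II, had 76.2, 66.4 and 68.4 CPM in PS19 and 95.7, 89.6 and 93.5 CPM in P301S Tia1+/- libraries (fold change 0.40, SE 0.0728, adjusted p = 0.00529), and Atp5g2, of the ATP synthase, rose by 0.34. Insig1, which holds back sterol synthesis, rose from 107, 103 and 108 CPM to 152, 138 and 142 CPM (fold change 0.44, adjusted p = 0.00197).

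Of the 29 genes that passed in both fits 15 stayed within 1.2-fold in WT replicate 1, and 8 were also called with the olfactory covariate. The genes described next were named after their values were seen. Fut10 (chr8:31187331-31261738, GRCm38), a fucosyltransferase, had 3.85, 2.8 and 3.79 CPM in PS19 and 10.5, 11.5 and 12.2 CPM in P301S Tia1+/- libraries, and 3.44, 2.96 and 3.35 CPM in WT against 9.11, 7.88 and 10.1 CPM in Tia1+/- libraries. The groups did not overlap with or without the tau transgene, and the fold change was 1.7 with it (SE 0.164, adjusted p = 0.000193, and 0.00133 over 12 libraries) and 1.47 without it. Pop4, a subunit of RNase P and RNase MRP, had 8.05, 8.16 and 8.43 CPM against 16.9, 15 and 16.7 CPM, a fold change of 0.98 (SE 0.111, adjusted p = 0.000494), and 0.99 without tau. The long noncoding RNA Sox2ot, whose gene overlaps Sox2 so that their reads may not be told apart, rose by 1.75 with tau and differed by 1.44 without it. Tmem260, a mannosyltransferase, had 13.7, 12.2 and 13.3 CPM against 23.3, 23.3 and 32.6 CPM (fold change 1.01, adjusted p = 0.00165). Fut10, Pop4, Sox2ot and F630042J09Rik were the 4 of the 29 that were also called between Tia1+/- and WT libraries, where 97 autosomal genes were (0.654%). That contrast has the same sex-linked pattern as the Tia1 label, so the 2 cannot be told apart there either.

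Among the other genes of the 29, Snn, a small membrane protein, had 224, 221 and 236 CPM in PS19 and 386, 338 and 345 CPM in P301S Tia1+/- libraries, and the secreted C1qtnf4 had 77.6, 59.6 and 74.1 CPM against 121, 118 and 120.2 CPM. They rose by 0.65 (SE 0.0746, adjusted p = 0.000523) and 0.76 (SE 0.0939, adjusted p = 0.000768), with differences of -0.02 and 0.09 without tau. Rgs20, a regulator of G protein signalling, fell by 0.90 from 19.3, 20.9 and 14.8 CPM to 9.24, 10.2 and 9.87 CPM (adjusted p = 0.00262). Neo1, the neogenin receptor, fell by 0.39 from 177, 171 and 165 CPM to 129, 127 and 135 CPM (adjusted p = 0.00298), and without tau Rgs20 and Neo1 differed by 0.16 and -0.00144. For none of these 4 was the difference between the effects with and without tau past the threshold.

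**Figure D5:**
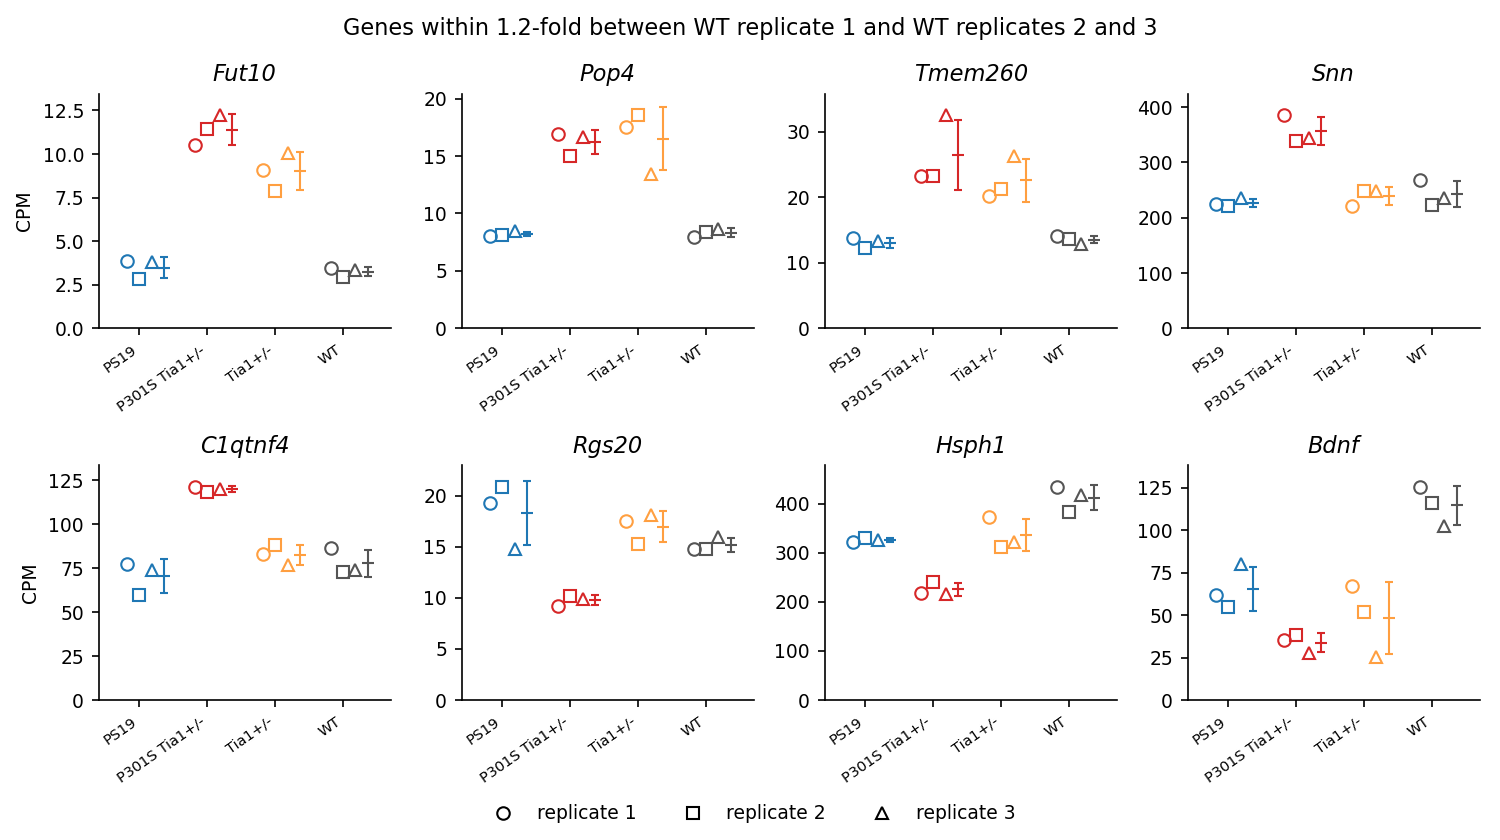
CPM of 8 genes in each of the 12 libraries; circles, squares and triangles are replicates 1 to 3, and the bar beside each group is the mean with the SD (n = 3). Fut10, Pop4 and Tmem260 are higher in both Tia1+/- groups than in both others, Snn and C1qtnf4 are highest in P301S Tia1+/- libraries, and Rgs20, Hsph1 and Bdnf are lower there than in PS19 libraries.

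The effect of the Tia1 label with tau was compared with that without tau in a fit of all 12 libraries. The difference was past the threshold for 1 autosomal gene (0.00674%), while 3403 had an unadjusted p under 0.05. F630042J09Rik, a long noncoding RNA gene on chromosome 13, fell by 1.88 with tau, from 2.55, 4.56 and 3.55 CPM to 0.943, 1.02 and 0.892 CPM, and had 0.640, 0.423 and 0.760 CPM in WT against 2.07, 1.77 and 2.25 CPM in Tia1+/- libraries (interaction adjusted p = 0.0466). Groups follow the titles here. By the genotype entries, the libraries titled P301S Tia1+/- and Tia1+/- would be exchanged. Both groups with tau would then be the higher ones for this gene. Which labels hold was not tested. The count of genes past the threshold depended on the tool and on single libraries, with 1196 genes called by DESeq2 and 997 without WT replicate 3. Genes within 10 Mb of Tia1 on chromosome 6, where the 129-derived flank of the targeted allele would lie, were called in 33 of 137 cases (24.1%), within the 16.5% to 24.6% of whole chromosomes.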

How the data were processed

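RNA from mouse cortex had been made into stranded total RNA libraries and sequenced in paired ends, 3 libraries for each of 4 groups. Per the methods and the submitters' processing notes, the authors mapped reads with TopHat (TopHat2 2.0.6 in the notes) against mm10 and deposited raw counts per gene symbol from featureCounts. Whether the counting used strand is not given in the sources used here, so that reads of overlapping genes may not be told apart. All 12 count columns matched a library title. Nothing states how far replicates are independent beyond their labels, so p-values measure the spread between these libraries. Libraries summed to between 11978962 and 19146484 counts.

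Symbols were placed on GRCm38 with GENCODE M21 by symbol or older symbol. Genes were filtered with filterByExpr in edgeR 4.0.16 (R 4.3.3), scaled by TMM over the 6 libraries and fitted with a mean per group, using the quasi-likelihood test with Benjamini-Hochberg adjustment over all genes tested at 0.05. Summed levels were compared by 2-sided exact permutation tests. On simulated counts for the same design, 80% of 2-fold and 96.9% of 4-fold changes were recovered with 18 false calls among 14948 genes. These counts were drawn gene by gene, so the false calls do not cover differences that many genes share, such as tissue content. CPM were scaled over all 12 libraries. The WT replicate 1 difference was taken on log2(CPM + 0.5). Alternatives were a fit of all 12 libraries, DESeq2 1.42.0, DESeq2 size factors, other filters, an olfactory covariate, removal of genes that differed in WT replicate 1, a replicate block, and each library left out.

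Genes were named by rule: the label checks; among called genes with groups apart and outside the tissue lists, the 12 largest rises and falls at 5 CPM or more and the 8 at 50 CPM or more; the 2 members of each list with the smallest p in each direction; 8 genes the study singles out; and the olfactory lists. Not every gene that the rule allows is described, some are not reported here, and others are marked in the text. Members, lists and tests were chosen with earlier results of these data known. X- and Y-linked genes were left out of list counts.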

Additional observations from a re-analysis of the deposited data

Results flagged for a closer look

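The effect of the Tia1 label on F630042J09Rik differed between the mice with and without tau by a log2 fold change of -3.605 (adjusted p = 0.0466, edgeR interaction test over 12 libraries), the 1 autosomal gene past the threshold there. With the replicate number as a block no gene passed. Groups follow the titles, and with the exchanged genotype entries both groups with tau would be the higher ones for this gene. Which labels hold was not tested.

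Libraries outside the comparison held tissue signals above the range of the other libraries of their group. The striatal markers summed to 2879 CPM in Tia1+/- replicate 3, the olfactory sensory axon markers to 662.9 CPM in WT replicate 1, and the bulb neuron and neuroblast markers to 1495 CPM in WT replicate 1 and 452.1 CPM in Tia1+/- replicate 3. Leptomeningeal and fibroblast markers summed to 315.5 CPM in WT replicate 1 and 154.9 CPM in Tia1+/- replicate 3. These libraries enter the fit of 12 libraries and not that of 6. With 3 libraries in a group, no test of a single library against its group was applicable.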

How the results depend on the processing

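The number of calls depended most, among these alternatives, on the libraries in the fit, on the olfactory covariate and on leaving out genes that differed in WT replicate 1. Against 2902 genes, 1544 higher and 1358 lower, the fit of 12 libraries called 29 (20 higher, 9 lower), DESeq2 on 12 libraries, added after the data were seen, 801 (533 and 268), and the olfactory covariate 499 (344 and 155). Without genes over 1.5-fold in WT replicate 1 there were 969 calls of fewer genes tested (483 and 486), and with the limit of 1.2-fold, also added later, 304 (141 and 163). Leaving out 1 library gave 1740 to 2856 calls, 967 to 1414 of them higher and 773 to 1442 lower. DESeq2 on the 6 libraries (2949), its size factors (2912), no filter (2944) and a filter of 10 counts (2718) stayed within 1.5 times, as did the replicate block with 2344 (2250 of them shared). Deviations of same-numbered libraries from their group means had r = -0.0863, -0.00252 and -0.18, and those of other pairs -0.0572 to 0.132. With 3 libraries per group, this cannot decide whether the numbers mark pairs. The difference between the effects with and without tau, past the threshold for 1 gene, was so for 616 genes with the olfactory covariate, 1196 with DESeq2, 0 with the replicate block and 0 to 997 with a library left out. Of the 121 named genes with a call, 11 kept it in the fit of 12 libraries and 109 with the block, none with another sign. With the olfactory covariate 54 changed sign, 7 of them past the threshold in the other direction. The log2 fold changes then were Neurod6 2.79, Rspo1 2.69, Fezf2 2.31, Satb1 1.67, Ldb2 1.56, Neurod2 1.51, Gabbr2 1.29, Sst 1.19, Miat 1.01, Khdrbs3 0.94, Thrb 0.86, Tenm2 0.85, Rims1 0.74, Mapk10 0.71, Snap25 0.63, Unc13b 0.59, App 0.45, Stau2 0.31, Mapt 0.31, Shank3 0.26, Slc1a2 0.25, Prnp 0.20, Cacna2d3 0.15 and Kcnab1 0.0202, all of them lower in the fit of 6 libraries. For genes higher in that fit they were Penk -3.08, Dlx6 -1.8, Spp1 -1.59, Sox11 -1.14, Dlx5 -1.14, Fstl5 -1.12, Cacng5 -1.09, Sp9 -0.95, Islr -0.80, Pbx3 -0.71, Pax6 -0.70, Fabp7 -0.64, Slc4a4 -0.57, Slc6a11 -0.44, Sall1 -0.43, Kcnj4 -0.32, Ptbp1 -0.32, Cldn5 -0.31, Dlx2 -0.29, Ptbp3 -0.29, Grm4 -0.28, Atf3 -0.24, Ybx1 -0.24, Gad1 -0.18, Tshz1 -0.14, Cacna1c -0.12, Kcnb2 -0.12, Col1a1 -0.077, Hist1h1c -0.0603 and Fyn -0.039. The cause was not tested. Depth limited genes of a few counts, such as Uncx and Lhx1.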

Other observations

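Pituitary markers, which include the abundant hormone genes of that gland, summed to 8.21, 23.6 and 46.8 CPM in Tia1+/- replicates 1 to 3 and to at most 9.72 CPM in every other library, so that replicates differed within the group. Blood markers summed to between 53.6 and 66.9 CPM over the 12 libraries.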
